A study of Mus musculus with 16 samples.

Results

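The secreted Wnt antagonists are 10 genes, Sfrp1, Sfrp2, Sfrp4, Sfrp5, Frzb, Wif1, Dkk1, Dkk2, Dkk3 and Dkk4, of the 54123 genes measured in mouse colon organoids. The list is one of gene names and sets no threshold on a measured value. Their reads were followed across 16 RNA-seq libraries in 8 groups of 2 replicates. The groups combine 2 regions of the colon (proximal, distal), 2 guides (the control Scramble-sgRNA, Cdx2-sgRNA) and 2 media (WENR-plus, WENR-minus). Every group carried a heterozygous Cre-inducible BrafV600E allele and a heterozygous tdTomato reporter, and the methods describe no Cre step for these libraries. The organoids came from the colon of 8-week-old female mice, were transduced with lentiviral Cas9 and guide, were selected with blasticidin for 2 weeks, and were in their 4th month of culture. They spent 2 days in WENR-plus, which supplies Wnt3a, EGF, Noggin and R-spondin 1, and then 3 days in WENR-plus or in WENR-minus, which lacks these factors. The Cdx2-sgRNA organoids grew from single cells with frameshift mutations, so that the guide and the choice of clone cannot be told apart.

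Wnt proteins signal by binding Frizzled receptors together with the co-receptors Lrp5 and Lrp6 and so stabilise beta-catenin, which drives stem cell division at the base of the colonic crypt. The secreted antagonists act outside the cell in different ways. The secreted frizzled-related proteins (Sfrp1, Sfrp2, Sfrp4, Sfrp5 and Frzb) carry a Frizzled-like cysteine-rich domain and bind Wnt proteins, Wif1 binds Wnt proteins through a WIF domain, and the Dickkopf proteins Dkk1, Dkk2 and Dkk4 bind Lrp5 and Lrp6, whereas Dkk3 is a divergent member of that family. In the intestine many of these genes are known from the stroma around the crypts, and promoter methylation of several of them is well known in colorectal cancer. Organoids are grown from epithelium without that stroma.

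Read depth set what could be seen. Total reads per library ranged from 12465194 to 18922143. A group was called at the floor of detection when each of its libraries held at most 3 reads of a gene, which corresponds to 0.143 to 0.254 CPM (the usual depth-scaled read count, here with TMM factors) depending on the library. The epithelial marker list (Epcam, Cdh1, Krt8 and others, 8 genes) summed to 4311 to 19142 CPM. The fibroblast and muscle list (15 genes) summed to 0.423 to 8.94 CPM, and its members Dcn, Lum and Thy1 were at 0 reads in all 16 libraries, as were the endothelial marker Emcn, the immune marker Tyrobp and the glial marker Sox10.

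The targeted gene Cdx2, an intestinal homeobox transcription factor, was read in all 16 libraries, at 515 to 3269 reads. In proximal organoids its RNA was lower with Cdx2-sgRNA, at 72.4 ± 2.00 against 177 ± 36.5 CPM in WENR-minus and 31.6 ± 2.44 against 134 ± 10.3 CPM in WENR-plus (SD, n = 2; adjusted p from edgeR's quasi-likelihood test 0.000679 and 5.48e-05). In distal organoids it was 106 ± 28.5 against 111 ± 1.69 CPM in WENR-minus and 56.2 ± 8.52 against 72.4 ± 6.28 CPM in WENR-plus (edgeR adjusted p 0.876 and 0.857). A frameshift need not lower the RNA, so these levels do not check the distal label. The guide is shown because it marks what separates the Cdx2-sgRNA groups. Its 20 bases lie on the minus strand of chromosome 5 at chr5:147306485-147306504 (GRCm38), in the coding part of exon 1 of the 3 exons of Cdx2, with the adjacent PAM read from the transcript in capitals.
Cdx2 guide and PAM: agcggcgaaacctgtgcgagTGG

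The promoter windows of Wif1 and Sfrp5 are shown because these members had reads in the most libraries, 12 and 9 of 16. Each window runs from 250 bases before to 50 bases after the RefSeq start (GRCm38.p6), 5′ to 3′ in the direction of the gene, and 6 of the 10 members (Sfrp2, Sfrp5, Frzb, Wif1, Dkk1 and Dkk2) had one. The Wif1 window is chr10:121033754-121034053 on the plus strand, and its RefSeq start lies 44 bases downstream of the GENCODE start of the transcript Wif1-201. The Sfrp5 window is chr19:42202203-42202502 on the minus strand, and both annotations give the same start. Capitals mark TTTAT on either strand, the core of the sites that Cdx proteins bind.
Wif1 promoter: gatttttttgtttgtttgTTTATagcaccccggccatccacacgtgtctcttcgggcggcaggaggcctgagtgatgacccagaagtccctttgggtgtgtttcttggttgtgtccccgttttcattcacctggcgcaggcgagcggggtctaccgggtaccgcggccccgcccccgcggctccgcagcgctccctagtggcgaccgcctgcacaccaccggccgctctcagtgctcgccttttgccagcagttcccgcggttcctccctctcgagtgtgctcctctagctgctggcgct
Sfrp5 promoter: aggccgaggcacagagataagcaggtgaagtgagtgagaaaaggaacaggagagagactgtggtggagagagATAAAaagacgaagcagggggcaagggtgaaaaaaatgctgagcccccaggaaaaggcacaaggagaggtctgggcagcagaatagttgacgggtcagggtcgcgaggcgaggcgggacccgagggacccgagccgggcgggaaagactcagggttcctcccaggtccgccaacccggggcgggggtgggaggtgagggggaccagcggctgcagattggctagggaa
Wif1 held 1 TTTAT, on the strand of the gene, and Sfrp5 held 1 on the opposite strand. Of all 32851 windows of this length 40.0% held TTTAT on either strand. The letters CTTTGAA or CTTTGAT, which LEF and TCF factors bind, were searched on both strands, occurred in 8.65% of all windows, and had no match in these Wif1 and Sfrp5 windows. They occurred once in the window of Dkk1. No binding was measured here, and a match describes the letters of a window only.

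Of the 10 members, 7 were at the floor in all 8 groups (Sfrp1, Sfrp4, Frzb, Dkk1, Dkk2, Dkk3 and Dkk4). Wif1 was the only member that passed the filter on low counts, which kept 15289 genes for testing. Sfrp1, Sfrp4, Frzb, Dkk1 and Dkk4 had 0 reads in all 16 libraries, 0 of 265494001 reads, and 3 reads, the limit used here for a count of 0, correspond to 0.0113 CPM over all libraries (counting error only). For Sfrp4 the paper reports protein by western blot in proximal organoids with BrafV600E, a measure of protein and not of RNA. Dkk2 had 1 read, in replicate 2 of proximal Cdx2-sgRNA WENR-plus. Dkk3 had 1 read in the same library and 1 in replicate 2 of distal Cdx2-sgRNA WENR-plus. Among all 21808 protein-coding genes, 22.4% had 0 reads throughout, 33.3% were at the floor in all groups and 59.0% passed the filter. In bulk RNA fewer cells that express a gene and less RNA per cell cannot be told apart.

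**Figure D1:**
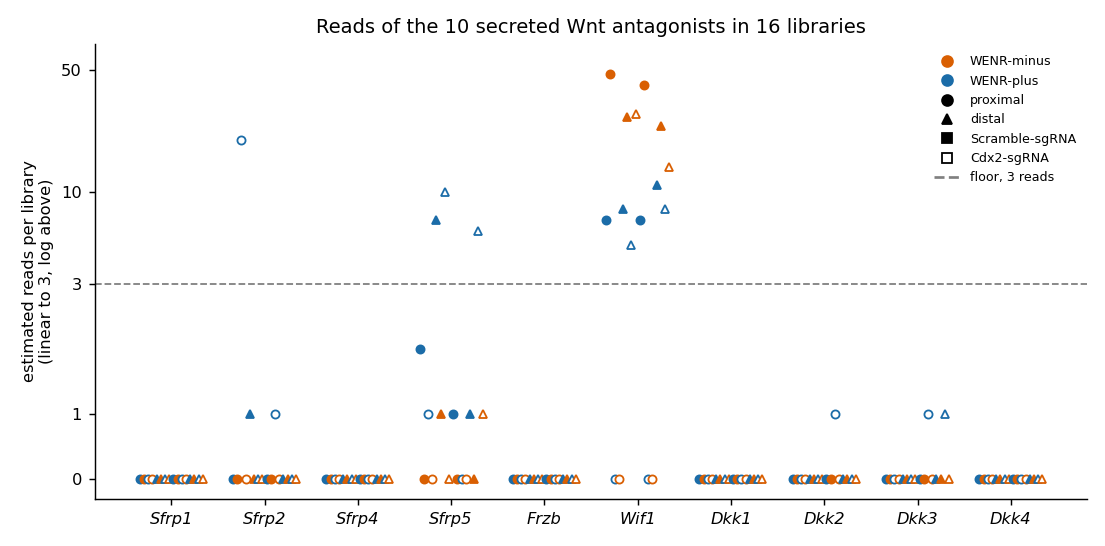
Estimated reads per library (vertical axis, linear up to 3 and logarithmic above) of the 10 members, 1 point for each of 16 libraries. Colour gives the medium, circles and triangles the region, filled and open points the guide, and the dashed line the floor of 3 reads; Wif1, Sfrp5 and Sfrp2 alone rise above that line.

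Sfrp5 (ENSMUSG00000018822.7, chr19:42197971-42202252, minus strand, GRCm38) was the best covered secreted frizzled-related gene, with 30 reads in all. The reads in replicates 1 and 2 were 10 and 6 in distal Cdx2-sgRNA WENR-plus and 7 and 1 in distal Scramble-sgRNA WENR-plus. In WENR-minus the distal libraries held 0 and 1 reads with Cdx2-sgRNA and 1 and 0 with Scramble-sgRNA. The distal Cdx2-sgRNA groups did not overlap between media, whereas the distal Scramble-sgRNA groups met at 1 read. In proximal organoids Sfrp5 had 2 and 1 reads in Scramble-sgRNA WENR-plus, 1 and 0 in Cdx2-sgRNA WENR-plus and 0 in all 4 WENR-minus libraries. All 4 proximal groups were therefore at the floor. The group means on the CPM scale were 0.445 ± 0.181 in distal Cdx2-sgRNA WENR-plus and 0.202 ± 0.210 in distal Scramble-sgRNA WENR-plus (SD, n = 2).

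Summed over a group and scaled for depth, distal Sfrp5 reads were 10.5 times as frequent in WENR-plus as in WENR-minus with Cdx2-sgRNA (16 against 1 reads, 95% exact interval 1.63 to 439, counting error only) and 5.59 times with Scramble-sgRNA (8 against 1 reads, interval 0.749 to 248). Over all organoids 7 of 8 WENR-plus libraries and 2 of 8 WENR-minus libraries held an Sfrp5 read. The mean was 0.188 CPM in WENR-plus and 0.0201 CPM in WENR-minus. A two-sided exact permutation test that exchanged the medium labels within each region and guide gave p = 0.00926, or 0.0278 adjusted over 6 tests (Wif1 and Sfrp5 by medium, guide and region). This test was added after the values were seen. The media were then exchanged only within an organoid line (same region, guide and replicate number). The exact permutation p was 0.0156, the smallest this pairing can give here. The adjusted p over the 6 tests was 0.0764. Beside the other p-values it could not fall below 0.05, so the pairing cannot decide this call. Without that pairing the call was lost without either replicate of distal Scramble-sgRNA WENR-minus (adjusted p 0.125 and 0.109, exact permutation) and without either replicate of distal Cdx2-sgRNA WENR-plus or replicate 1 of proximal Cdx2-sgRNA WENR-plus (adjusted p 0.0556 in each case, exact permutation). By region the mean was 0.0266 CPM in proximal and 0.182 CPM in distal libraries (exact permutation adjusted p 0.0764), and by guide it was 0.129 CPM with Cdx2-sgRNA and 0.0795 CPM with Scramble-sgRNA (exact permutation adjusted p 0.565). With single libraries left out, the region value stayed above 0.05 in 14 of 16 runs (exact permutation adjusted p 0.0278 to 0.167). The guide value did so in 16 of 16 (exact permutation adjusted p 0.426 to 0.907).

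Sfrp2 (chr3:83766321-83774316, plus strand, GRCm38) rested on a single library. Replicate 1 of proximal Cdx2-sgRNA WENR-plus held 20 of its 22 reads and replicate 2 of the same group held 1. Replicate 1 of distal Scramble-sgRNA WENR-plus held the other read, and the remaining 13 libraries held 0. The replicates of the proximal Cdx2-sgRNA WENR-plus group thus spanned 1 to 20 reads (mean 0.606 ± 0.783 CPM, SD, n = 2), and the SD exceeded the mean. The library with 20 reads had a fibroblast and muscle marker sum of 0.696 CPM, within the 0.423 to 0.793 CPM of the proximal Cdx2-sgRNA libraries and under the 2.96 to 8.94 CPM of the other groups. The source of the Sfrp2 reads in this library was not tested. When the filter on low counts was left out, edgeR did not call Sfrp2 in that group against WENR-minus (adjusted p 0.109) or against Scramble-sgRNA (adjusted p 0.0575).

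**Figure D2:**
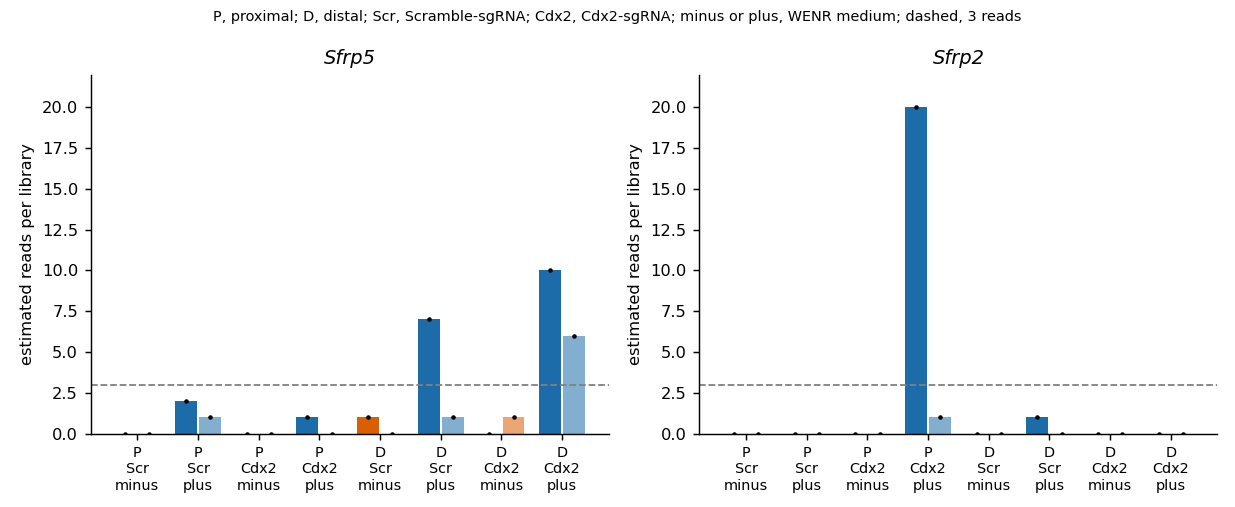
Estimated reads per library (vertical axis) of Sfrp5 and Sfrp2 in the 8 groups, with replicate 1 in the darker and replicate 2 in the paler bar, WENR-minus in orange and WENR-plus in blue, and a dashed line at 3 reads. Sfrp5 reached 10 and 6 reads in distal Cdx2-sgRNA WENR-plus, and Sfrp2 reached 20 reads in a single library.

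Wif1 (ENSMUSG00000020218.11, chr10:121033960-121100650, plus strand, GRCm38) had 227 reads and was above the floor in 6 of 8 groups. It was most abundant in WENR-minus medium. The proximal Scramble-sgRNA WENR-minus libraries held 47 and 41 reads, 2.91 CPM (95% exact Poisson interval 2.14 to 3.87) and 2.14 CPM (1.53 to 2.90). The distal Scramble-sgRNA WENR-minus libraries held 27 and 24 reads, 2.08 and 1.72 CPM, and the distal Cdx2-sgRNA WENR-minus libraries 28 and 14 reads, 2.37 and 1.17 CPM. By single libraries these 3 groups lay between 1.17 and 2.91 CPM, and distal Cdx2-sgRNA WENR-minus had the widest spread. In WENR-plus the counts were 7 and 7 in proximal Scramble-sgRNA, 8 and 11 in distal Scramble-sgRNA and 5 and 8 in distal Cdx2-sgRNA, at 0.287 to 0.591 CPM. All 6 of these WENR-plus libraries lay under all 6 of the WENR-minus libraries named before. All 4 proximal Cdx2-sgRNA libraries held 0 reads, in either medium.

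The Wif1 level per unit length was low throughout, at most 1.75 TPM (a length-corrected share of transcripts, as deposited), in proximal Scramble-sgRNA WENR-minus. On the same scale Sfrp2 reached 0.949 TPM and Sfrp5 0.555 TPM in their highest libraries. By group mean the order of Wif1 was proximal Scramble-sgRNA WENR-minus (2.52 ± 0.549 CPM), distal Scramble-sgRNA WENR-minus (1.90 ± 0.253), distal Cdx2-sgRNA WENR-minus (1.77 ± 0.847), distal Scramble-sgRNA WENR-plus (0.496 ± 0.135), proximal Scramble-sgRNA WENR-plus (0.374 ± 0.0564), distal Cdx2-sgRNA WENR-plus (0.355 ± 0.0966) and the proximal Cdx2-sgRNA groups at 0 (SD, n = 2). Neighbours in this order overlapped in mean ± SD, except at the step from the WENR-minus to the WENR-plus groups and the step to 0. By single libraries proximal Scramble-sgRNA WENR-minus (2.14 and 2.91 CPM) lay above distal Scramble-sgRNA WENR-minus (1.72 and 2.08 CPM). Salmon assigned 62.2% of the Wif1 reads to the coding transcript Wif1-201, 22.5% to the coding transcript Wif1-203 and 15.3% to Wif1-202, a retained intron. Most libraries had all their Wif1 reads on a single transcript, and not the same one in each. In distal Scramble-sgRNA WENR-minus replicate 2 had all 24 reads on Wif1-203 and replicate 1 had 0 there. No isoform difference was read from these counts.

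**Figure D3:**
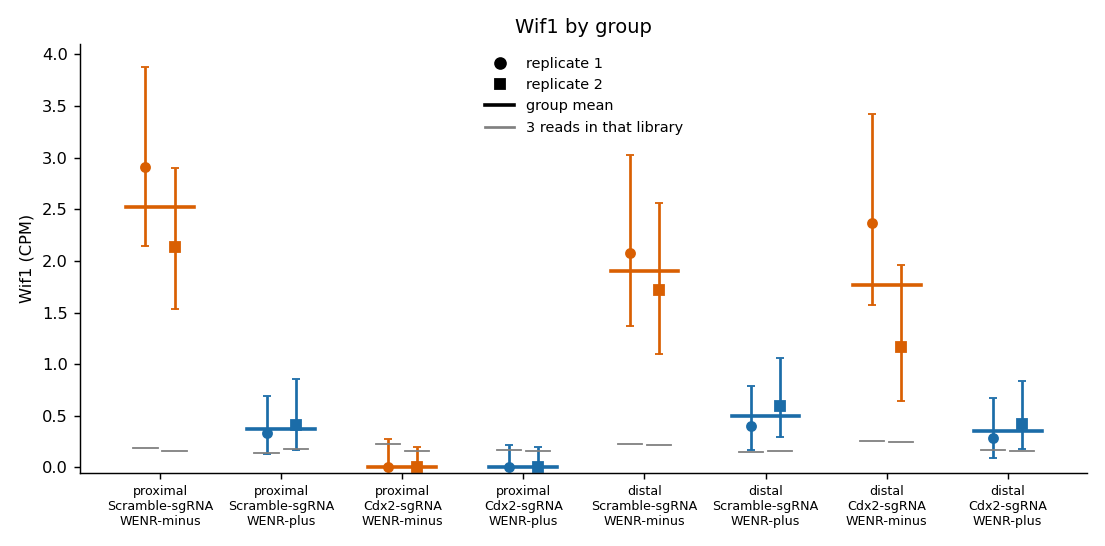
Wif1 in CPM (vertical axis) for each library of the 8 groups, with 95% exact Poisson intervals for counting error, group means as thick lines, WENR-minus in orange, WENR-plus in blue and the level of 3 reads in each library as a grey line. WENR-minus libraries lie between 1.17 and 2.91 CPM outside the proximal Cdx2-sgRNA groups, which are at 0.

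The comparison of media asks how withdrawal of the niche factors changed the antagonists. Wif1 was called lower with the niche factors present in each of the 3 comparisons that gave a value. It passed the filter on low counts through the WENR-minus libraries, since no WENR-plus library held more than 11 reads. The calls made with the filter are therefore a description only, and those made without it are given after them. The log2 difference was -2.73 ± 0.56 (SE) in proximal Scramble-sgRNA organoids, a WENR-plus level of 0.148 times that in WENR-minus (edgeR adjusted p 0.00656). It was -1.92 ± 0.55 in distal Scramble-sgRNA organoids, a ratio of 0.261 (edgeR adjusted p 0.0196). It was -2.29 ± 0.57 in distal Cdx2-sgRNA organoids, a ratio of 0.200 (edgeR adjusted p 0.00835). Of all genes tested, 8.73%, 12.2% and 14.9% were called lower in these comparisons, so a fall in WENR-plus was common among genes. In proximal Cdx2-sgRNA organoids Wif1 was at 0 in both media and gives no comparison. Without that filter the call in distal Scramble-sgRNA organoids was lost (edgeR adjusted p 0.0589), whereas the others were kept (0.00567 and 0.0192). Leaving out single libraries also ended calls. In distal Scramble-sgRNA organoids the edgeR adjusted p was 0.107 and 0.0556 without WENR-plus replicate 1 or 2, and 0.0885 without WENR-minus replicate 1. In distal Cdx2-sgRNA organoids it was 0.0607 without WENR-plus replicate 1 and 0.0712 without WENR-minus replicate 1, and in proximal Scramble-sgRNA organoids it was 0.0561 without WENR-plus replicate 1. The log2 difference was at or below -1.70 in every alternative run for these comparisons.

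Over all 16 libraries Wif1 averaged 0.306 CPM in WENR-plus and 1.55 CPM in WENR-minus. The two-sided exact permutation p within region and guide was 0.00926, or 0.0278 adjusted over the 6 tests. Leaving out single libraries raised the adjusted p (exact permutation) to at most 0.0556 in 5 of 16 cases. These were replicate 1 of proximal Cdx2-sgRNA WENR-plus and both replicates of distal Scramble-sgRNA WENR-minus and of distal Cdx2-sgRNA WENR-plus. The same omissions ended the Sfrp5 call, and the 6 tests are adjusted together. The proximal Cdx2-sgRNA library held 0 Wif1 reads, so its omission moved the adjusted value only through that joint adjustment. With the media exchanged only within an organoid line the exact permutation p for Wif1 was 0.0312, again the smallest this pairing can give here. The adjusted p over the 6 tests was 0.0764, which again could not fall below 0.05. The medium difference of Wif1 did not differ detectably between the guides in distal organoids (difference -0.37 ± 0.77, SE, on the log2 scale, edgeR adjusted p 0.945). For this difference edgeR called 0 of the 15289 genes tested, 1457 had an unadjusted p under 0.05, and DESeq2 called 120. By guide Wif1 averaged 0.531 CPM with Cdx2-sgRNA and 1.32 CPM with Scramble-sgRNA, and by region 0.725 CPM in proximal and 1.13 CPM in distal libraries, and neither passed the exact permutation test over all libraries (adjusted p 0.0764 and 0.246). With single libraries left out, the guide value stayed above 0.05 in 15 of 16 runs (exact permutation adjusted p 0.0185 to 0.236). The region value did so in 16 of 16 (exact permutation adjusted p 0.113 to 0.5). Sfrp5 ran the other way in reads, 28 in WENR-plus and 2 in WENR-minus. The enteroendocrine marker list (Chga, Chgb and others, 8 genes) moved with Wif1: it summed to 142 to 579 CPM in the WENR-minus and 54.8 to 169 CPM in the WENR-plus libraries outside the proximal Cdx2-sgRNA groups, and its part in the result was not tested.

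The comparison of guides asks how loss of Cdx2 changed the antagonists in each region. In proximal organoids Wif1 fell from 47 and 41 reads to 0 and 0 in WENR-minus and from 7 and 7 to 0 and 0 in WENR-plus. Against a floor of 3 reads per library this was at least 13.2-fold lower in WENR-minus (edgeR adjusted p 0.000221) and at least 2.25-fold lower in WENR-plus (edgeR adjusted p 0.00444). Among all genes tested 12.1% and 8.94% were called lower. In the proximal Cdx2-sgRNA libraries the floor of 3 reads corresponds to 0.159 to 0.223 CPM. In distal organoids the log2 difference of Wif1 between guides was -0.10 ± 0.52 in WENR-minus and -0.47 ± 0.58 in WENR-plus (SE), and edgeR called neither (adjusted p 0.939 and 0.974), where 5.25% and 0.262% of genes were called in either direction.

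The guide effect itself was compared between regions. For Wif1 it differed in WENR-minus (edgeR adjusted p 0.00164), where 9.08% of genes were called lower and 5.17% higher in proximal than in distal organoids. In WENR-plus the edgeR adjusted p was 0.0405, against 3.76% of genes called lower and 1.22% higher. That call was lost with DESeq2 (adjusted p 0.0763), without the filter on low counts (edgeR adjusted p 0.0553), and without any of 12 of the 16 libraries (edgeR adjusted p 0.0590 to 0.134), namely all but the Cdx2-sgRNA WENR-minus libraries. In the proximal Cdx2-sgRNA libraries the enteroendocrine marker list summed to 0.952 to 2.15 CPM, against 54.8 to 579 CPM in the other groups, and the fibroblast and muscle list was also lowest there. The immune marker list (8 genes) moved the other way, at 6.72 to 26.4 CPM in the proximal Cdx2-sgRNA libraries against 1.51 to 10.03 CPM in the other groups. In WENR-minus edgeR called its members Csf1r and Cd68 higher with Cdx2-sgRNA and Itgam lower. The endothelial list (0.965 to 7.24 against 2.43 to 11.6 CPM) and the glia and neuron list (0.696 to 1.69 against 0.620 to 2.15 CPM) overlapped between these libraries and the rest. Their part in the Wif1 result was not tested.

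Between regions, Scramble-sgRNA organoids gave a log2 difference of Wif1, proximal minus distal, of 0.41 ± 0.51 in WENR-minus and -0.40 ± 0.57 in WENR-plus (SE). Neither passed edgeR's test (adjusted p 0.666 and 0.838), where 6.08% and 1.75% of genes were called in either direction. The difference between these region effects, WENR-minus minus WENR-plus, was 0.81 ± 0.77 (SE, edgeR adjusted p 0.814, 0.0719% of genes called). With Cdx2-sgRNA, Wif1 was at least 9.28-fold lower in proximal than in distal organoids in WENR-minus (edgeR adjusted p 0.000187) and at least 2.13-fold lower in WENR-plus (edgeR adjusted p 0.00430), where 16.5% and 9.57% of genes were called lower. These comparisons share the proximal Cdx2-sgRNA libraries with the guide comparisons.

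The genes whose pattern was most like that of Wif1 over the 16 libraries, among 9908 genes with a mean of at least 5 CPM, were Cyp2c55, a cytochrome P450 (Pearson r 0.975 on log2 CPM), Ildr1, a tricellular junction protein (0.974), and Car1, the colonocyte carbonic anhydrase (0.967). The libraries share groups and depth, and r is given as a description. Their levels were far higher. Cyp2c55 ran from 2954 to 5497 CPM in WENR-minus and 244 to 278 CPM in WENR-plus outside the proximal Cdx2-sgRNA libraries, and from 9.95 to 14.5 CPM in those. Ildr1 ran from 200 to 372 CPM in WENR-minus and 66.4 to 112 CPM in WENR-plus, and from 17.9 to 24.4 CPM in the proximal Cdx2-sgRNA libraries. Car1 ran from 3061 to 8710 CPM in WENR-minus and 144 to 520 CPM in WENR-plus, and from 11.4 to 22.4 CPM in the proximal Cdx2-sgRNA libraries. These genes kept reads in the proximal Cdx2-sgRNA libraries, where Wif1 had 0.

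**Figure D4:**
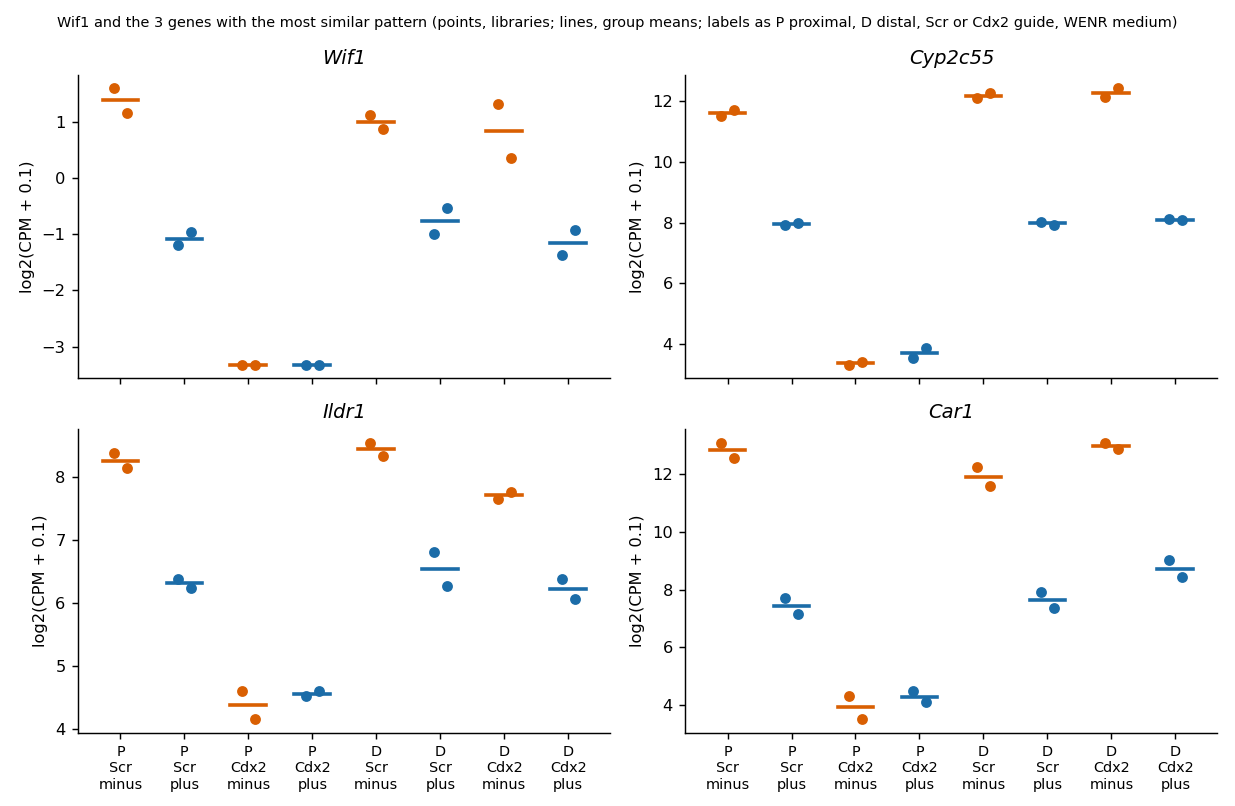
Wif1 and the 3 genes with the most similar pattern, as log2(CPM + 0.1) on a vertical axis of its own for each gene, with 1 point per library, lines for group means, WENR-minus in orange and WENR-plus in blue. All 4 genes are lowest in the proximal Cdx2-sgRNA libraries and otherwise higher in WENR-minus, with Cyp2c55 at 9.95 to 14.5 CPM where Wif1 is at 0.

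Other antagonists of the pathway, 11 genes that act at the membrane or outside the cell, were read beside the members, and 5 of them passed the filter. Notum, a secreted enzyme that removes the lipid of Wnt proteins, rose with Cdx2-sgRNA in proximal organoids, from 1 and 4 reads to 80 and 69 in WENR-minus (log2 difference 5.03 ± 0.63, SE, edgeR adjusted p 0.000161) and from 11 and 8 to 116 and 95 in WENR-plus (3.53 ± 0.55, edgeR adjusted p 0.00106). The replicates did not overlap between guides. Apcdd1, a membrane-bound Wnt inhibitor, fell in the same comparisons, from 33 and 164 reads to 0 and 1 in WENR-minus (edgeR adjusted p 0.00187) and from 409 and 494 to 0 and 6 in WENR-plus (edgeR adjusted p 0.000810). Kremen1, a receptor for Dickkopf proteins, had 310 to 629 reads in every library and was not called in any medium or guide comparison (log2 difference 0.60 and 0.64 in the proximal guide comparisons, under the threshold of 1). The list thus had 1 gene higher and 1 lower in each proximal guide comparison, where 9.04% (WENR-minus) and 6.93% (WENR-plus) of all genes were called higher and 12.1% and 8.94% lower. In WENR-plus against WENR-minus, Notum, Apcdd1 and Trabd2b, a membrane metalloprotease that inactivates Wnt proteins, rose in distal Scramble-sgRNA organoids, and Notum and Apcdd1 rose in distal Cdx2-sgRNA organoids, where 14.2% and 18.1% of all genes were called higher. Trabd2b passed the filter through distal Scramble-sgRNA WENR-plus alone (17 and 19 reads, at most 5 elsewhere), so its rise is a description only, also where it is counted. These counts of 3 and 2 were 2 and 1 with DESeq2, and the latter was also 1 with length-scaled counts. In proximal organoids edgeR called 0 of the 5 in either direction (3 higher in Scramble-sgRNA and 0 in Cdx2-sgRNA at an unadjusted p under 0.05, and 1 and 0 with DESeq2), where 8.24% and 2.98% of all genes were called higher and 8.73% and 3.42% lower. With 5 genes a count of 0 is near these shares. Sostdc1 and Cer1 had 0 reads in all libraries and Sost had 1.

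**Figure D5:**
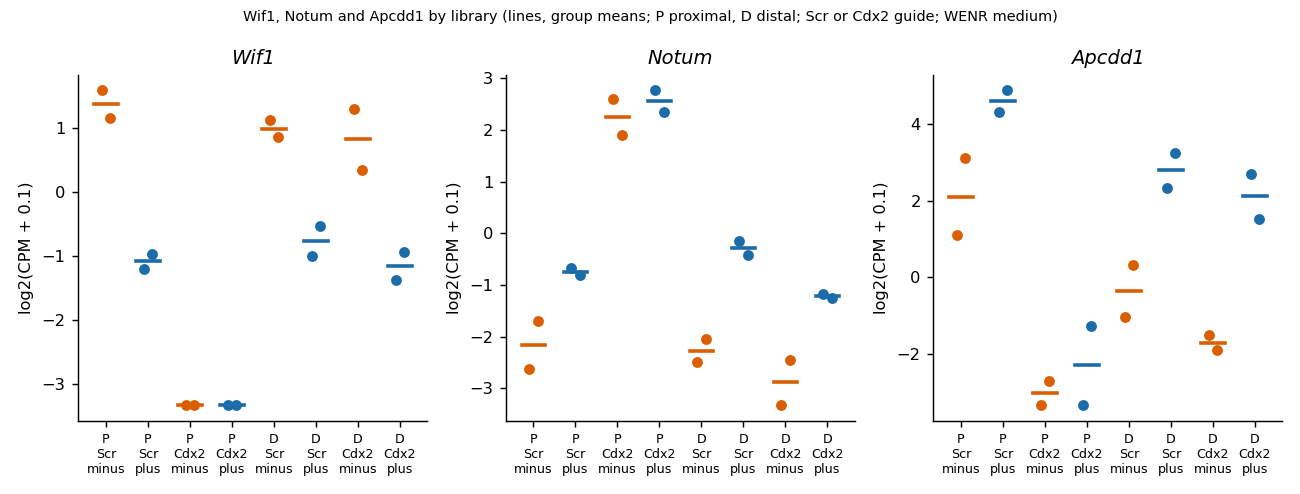
Wif1, Notum and Apcdd1 as log2(CPM + 0.1) on a vertical axis of its own for each gene, with 1 point per library, lines for group means, WENR-minus in orange and WENR-plus in blue. In proximal Cdx2-sgRNA organoids Notum is highest, at 69 to 116 reads, where Wif1 is at 0 reads and Apcdd1 at 0 to 6.

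Among known Wnt target genes the calls by medium were all higher in WENR-plus, including the proximal Cdx2-sgRNA organoids where Wif1 was at 0 in both media. Of 20 targets 16 were called higher in proximal Scramble-sgRNA, 10 in proximal Cdx2-sgRNA, 13 in distal Scramble-sgRNA and 14 in distal Cdx2-sgRNA organoids, where 8.24%, 2.98%, 14.2% and 18.1% of all genes were called higher. With edgeR 0 targets were called lower in any of these comparisons, 0 at an unadjusted p under 0.05 and 0 by DESeq2. The background of lower calls in proximal Cdx2-sgRNA organoids was 3.42%. The list medians on the log2 scale were 2.06, 1.48, 2.50 and 2.78, against 0.06, 0.03, 0.11 and 0.10 over all genes tested. In proximal Scramble-sgRNA organoids the 4 called targets with the largest differences were Tnfrsf19, a receptor of the tumour necrosis factor family (5.28 ± 1.14), Sp5, a transcription factor (from 0.0930 to 1.87 CPM), Lgr5, the R-spondin receptor of stem cells (3.58 ± 0.66), and Ascl2, a stem cell transcription factor (3.53 ± 0.66; log2 differences ± SE). Sp5 had at most 3 reads in any WENR-minus library and passed the filter through WENR-plus libraries, so its call is a description only.

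With Cdx2-sgRNA the targets moved in both directions in proximal organoids (Notum is in this list too). In distal organoids edgeR called 1 higher and 1 lower in WENR-minus and 0 in WENR-plus (1 higher and 1 lower at an unadjusted p under 0.05, 0 with DESeq2), where 5.25% and 0.262% of all genes were called in either direction. In proximal organoids 6 of 20 were called higher and 4 lower in WENR-minus, and 4 higher and 5 lower in WENR-plus. The shares over all genes were 9.04% higher and 12.1% lower in WENR-minus and 6.93% higher and 8.94% lower in WENR-plus. Of the lower genes Nkd1, a feedback inhibitor inside the cell, went from 6.88 to 0.0793 CPM in WENR-plus and Lef1, a transcription factor of the pathway, from 26.4 to 0.851 CPM (log2 difference -4.93 ± 0.91, SE), whereas Rnf43, which removes Frizzled from the membrane, rose in WENR-minus (1.99 ± 0.33) and WENR-plus (1.56 ± 0.32). Most of the 1142 reads of Lef1 were in the proximal Scramble-sgRNA libraries, so its values are a description only.

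RNA of the receptors and ligands to which the members bind was read for part of these lists. Lrp5 and Lrp6, the co-receptors that Dickkopf proteins bind, had at least 1093 and 2028 reads in every library, and 15 of 16 receptors and co-receptors passed the filter. Of 19 Wnt ligands 7 passed, and Wnt1, Wnt2, Wnt2b, Wnt3a, Wnt8a and Wnt16 had 0 reads in all libraries. In proximal organoids Cdx2-sgRNA raised 3 ligands and lowered 1 in WENR-minus, and raised 4 and lowered 1 in WENR-plus, of 7 tested. Of these Wnt10a and Wnt6 passed the filter through the proximal Cdx2-sgRNA libraries, with at most 7 reads elsewhere, so the counts are a description only. The ligands with the largest rise were Wnt10a (from 0 to 7.58 CPM) and Wnt7b (from 0.223 to 38.1 CPM) in WENR-minus. Wnt3, a ligand made by crypt epithelium, fell from 1.11 to 0 CPM in WENR-minus and from 4.32 to 0.0264 CPM in WENR-plus. Among receptors 3 rose and 1 fell in WENR-minus, and 2 rose and 4 fell in WENR-plus, of 15 tested and beside the same shares, so that the single fall in WENR-minus is under the 12.1% of all genes. Fzd4 rose in each (3.26 ± 0.59 and 2.17 ± 0.56 on the log2 scale, SE), and Fzd10 went from 1.69 to 0 and from 6.90 to 0 CPM. Nkd1 and Fzd10 passed the filter through the proximal Scramble-sgRNA libraries, with at most 4 reads in the other groups, and their values are a description only. Of the 9 genes of the R-spondin branch 4 passed the filter, and Rspo1, Rspo2 and Rspo3 had 0 reads in all libraries.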

How the data were processed

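RNA from 16 colon organoid libraries was made with a stranded total RNA kit. The authors deposited estimated counts (also called expected counts) of each transcript from Salmon 1.1.0, quantified on GENCODE vM23 (mm10), without scaling between libraries. The deposited TPM and effective lengths come from the same Salmon run by the authors. TPM was used for levels per length and, with the effective lengths, for length-scaled counts. Of 140748 transcripts 139864 were matched to GENCODE vM21 (GRCm38) and summed to 54123 genes. The other 884 held 0.257 to 0.509% of the counts of a library. Mitochondrial ribosomal RNA took 15.4 to 28.0%.

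Gene sums were rounded and tested in edgeR 4.0.16 (R 4.3.3): filterByExpr (15289 genes), TMM, glmQLFit with 1 coefficient per group over all libraries (8 residual degrees of freedom) and glmQLFTest, with Benjamini-Hochberg adjustment within each of 17 contrasts over all genes tested. A call needed an adjusted p below 0.05 together with a log2 difference beyond 1 in either direction. Standard errors are the log2 difference divided by the square root of F. CPM intervals are 95% exact Poisson intervals. The tests were checked on simulated data. Alternatives were RLE scaling, no filter, DESeq2 1.42.0 (the authors also used DESeq2), a replicate block, only the libraries compared, length-scaled counts, no fold threshold, a floor of 10 reads and leaving out each library.

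The members and lists were chosen with earlier results of these data known. Named genes were all members, Cdx2, up to 4 called genes of a list with the largest changes, and the 3 genes most correlated with Wif1. Notum, Apcdd1, Kremen1, Trabd2b, Nkd1, Lef1, Rnf43, Wnt3, Fzd4, Fzd10 and the genes at 0 reads include names chosen after their values were seen. Replicates are from independent mice by the methods, and p-values measure the spread between 2 libraries a group. Same-numbered libraries of a region and guide deviated together between the media (correlation 0.281 to 0.589 in 4 of 4 pairs of groups), and the methods split the organoids between the media, so the numbers were taken to pair the media. The main fit has no block, and a fit and a permutation with the organoid line as a block were added after the values were seen. Promoter windows are from RefSeq tables (GRCm38.p6).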

Additional observations from a re-analysis of the deposited data

Results flagged for a closer look

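The effect of Cdx2-sgRNA differed between proximal and distal organoids by a test of the difference itself (edgeR) for 3 antagonists. For this difference 9.08% of all genes tested were called lower and 5.17% higher in WENR-minus. In WENR-plus the shares were 3.76% lower and 1.22% higher. For Wif1 the adjusted p was 0.00164 in WENR-minus and 0.0405 in WENR-plus, with reads falling to 0 in proximal organoids in both media. The WENR-plus call was lost in 15 of 21 alternatives (edgeR or DESeq2 adjusted p 0.0426 to 0.134 over them). For Notum the log2 difference of the effects was 6.29 ± 1.25 (SE) in WENR-minus (edgeR adjusted p 0.00655) and 4.65 ± 0.78 in WENR-plus (edgeR adjusted p 0.00604), with the higher reads in proximal Cdx2-sgRNA organoids. For Apcdd1 the adjusted p was 0.0131 in WENR-plus (edgeR), with 0 and 6 reads in proximal Cdx2-sgRNA organoids, and in WENR-minus it did not pass (edgeR adjusted p 0.0997). Groups of 2 libraries are too small for a test of outlying samples.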

How the results depend on the processing

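Read counts limit these results: Wif1 never exceeded 47 reads, Sfrp5 10 and Sfrp2 20 in a library, and a count of 0 in a library was read against the floor of 3 reads. Wif1 was called by medium in 3 comparisons, and in 2 without the filter (distal Scramble-sgRNA adjusted p 0.0589). Leaving out single libraries gave 2 to 3. With only the libraries compared in the fit, calls by guide, by region and for differences of effects each fell from 2 to 1, since Wif1 did not pass the filter in the WENR-plus libraries alone and gave no value there. Differences of effects also gave 1 call without the filter, with DESeq2, and 1 to 2 when single libraries were left out. The Wif1 calls by guide and region within proximal or Cdx2-sgRNA organoids kept their side of the threshold in every other alternative that gave a value, single omissions included. The log2 difference of distal Wif1 between guides in WENR-minus changed sign to 0.04 without distal Scramble-sgRNA WENR-minus replicate 1 and to 0.31 without distal Cdx2-sgRNA WENR-minus replicate 2 (range -0.69 to 0.31 over single omissions), and the distal difference of medium effects changed sign to 0.22 without distal Cdx2-sgRNA WENR-minus replicate 1 (range -0.78 to 0.22). None of these was called, and the cause was not tested. With a floor of 10 reads 8 members were at the floor instead of 7. RLE and length-scaled counts moved the median of all genes by at most 0.0647 and 0.0572 (log2).

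With the organoid line as a block (4 residual degrees of freedom), Wif1 was called by medium in the same 3 comparisons (adjusted p 0.00778, 0.0275 and 0.0177). With the media exchanged only within a line, exact permutation gave p = 0.0312 for Wif1 (lower in WENR-plus in 6 of 8 lines, equal in 2) and 0.0156 for Sfrp5 (higher in 7 of 8, equal in 1). Adjusted over the same 6 tests both were 0.0764. Each p was the smallest this pairing can give with its equal lines. Beside the other p-values neither adjusted value could fall below 0.05, so this pairing cannot decide either permutation call. Between regions and guides the deviations of same-numbered libraries correlated at over 0.1 in only 5 of 24 pairs of groups (-0.0594 to 0.189), so the numbers were not taken to pair those. With the replicate number as a replicate block, differences of effects gave 1 call in place of 2 (Wif1 in WENR-plus, adjusted p 0.0502), and the other counts of member calls did not change. Over all genes that block raised the calls in each contrast, for example from 3239 to 3388 for the guide in proximal WENR-minus.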
